A study of Mus musculus with 6 samples.

Results

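The insulin-like growth factor (IGF) system of lung pericytes is described here through 10 genes, listed by symbol: the ligands Igf1 and Igf2, the receptors Igf1r and Igf2r, and the binding proteins Igfbp2, Igfbp3, Igfbp4, Igfbp5, Igfbp6 and Igfbp7. All 10 were found among the 21603 genes listed for each sample. In ribosome-bound RNA pulled down from mutant lungs, Igfbp7 rose to 237% of its control level and Igf2 fell to 50.8%. Igf1, both receptors and the other 5 binding proteins did not pass the test. Igf2 no longer passed in 3 of 6 fits with a sample left out, nor with Y-linked transcripts as a covariate. The part of other cells' RNA in the Igfbp7 and Igf2 values was not tested.

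IGF1 and IGF2 are small secreted growth factors that activate the receptor tyrosine kinase IGF1R and, through it, the PI3K-AKT-mTOR and MAPK cascades. IGF2R has no kinase and carries IGF2 from the cell surface to lysosomes, so it lowers the amount of free ligand. The binding proteins hold IGFs in the extracellular space, lengthen their life and limit their access to the receptor, and proteases set the ligands free again. IGFBP7 binds IGFs with low affinity, and is known as a matrix protein of blood vessels.

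The question behind the comparison was which transcripts of pericytes, the mural cells of capillaries, depend on the transcriptional co-activators YAP1 and TAZ (the product of Wwtr1). Ribosome-bound RNA was pulled down with an anti-HA antibody from whole P8 lungs of C57BL/6 mice and sequenced in 3 control and 3 Yap1,Wwtr1 iPCKO samples. All 6 mice carried Pdgfrb(BAC)-CreERT2, in which Pdgfrb regulatory sequences drive an inducible Cre, and the Rpl22 RiboTag allele, which puts an HA tag on ribosomes of recombined cells, and all received tamoxifen from P0 to P2. The controls had 1 floxed and 1 wild-type copy of each gene (labelled Yap1+/-;Wwtr1+/-) and the iPCKO mice had 2 floxed copies (labelled Yap1-/-;Wwtr1-/-), so a control cell also lost 1 copy of each gene where Cre had acted. Since RNA was pooled from all tagged cells, fewer cells making a transcript and less transcript per cell cannot be told apart. P-values rest on these 3 samples per group. Those of the limma fit use a spread that is pooled over both groups and drawn toward that of genes of like level.

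Values are RPKM, read numbers divided by exon length in kilobases and by library depth, and differences are log2 fold changes of RPKM + 0.1, iPCKO minus control, with the standard error (SE) of the limma fit. A gene was called at an adjusted p below 0.01 with an absolute log2 fold change above 0.5. The steps between low RPKM values gave depths of 17.4 to 34.67 M reads in controls and 14.24 to 39.56 M in iPCKO samples. With the summed exon lengths of the annotation, the lowest value of a member stood for about 66 reads (Igfbp2) and that of Igf2 for about 432. Yap1 fell from 13.2, 11.5 and 12.4 RPKM in controls to 5.76, 5.83 and 5.25 RPKM in iPCKO samples (log2 fold change -1.12, adjusted p = 0.00017). Wwtr1 had 71.3, 53.8 and 56.1 RPKM in controls and 63.5, 60.3 and 62.2 RPKM in iPCKO samples (adjusted p = 0.82). These values cover all exons of a gene, floxed or not, so loss of the floxed Wwtr1 sequence cannot be read from them, and the groups are named by their labels.

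The immunoprecipitated RNA was checked against marker lists. Pdgfrb was the 3rd most abundant transcript of controls, at 1369 to 1666 RPKM, and 1193 to 1447 RPKM in iPCKO samples, without passing the test (adjusted p = 0.46). Of 11 pericyte markers, 3 rose (Cspg4, Kcnj8 and Abcc9), 2 fell (Notch3 and Rgs5) and 6 were not called. Leukocyte and neutrophil markers lay higher in every iPCKO sample than in any control. The summed level of 10 leukocyte markers was 58.9 to 82.5 RPKM in controls and 151 to 270 RPKM in iPCKO samples, and 8 of the 10 rose. The sum of 10 neutrophil markers went from 87.1 to 129 RPKM in controls to 449 to 4949 RPKM in iPCKO samples, and 6 of the 10 rose. No marker of these lists was at 0 in all samples. Over all genes tested, 4.11% rose and 2.68% fell. The summed level of 4 Y-linked genes was up to 40.8 RPKM in controls 1 and 3 and at or below 0.075 RPKM in control 2 and all iPCKO samples, so sex was not balanced between the groups.

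The ligands differed from each other in their response. Igf1 (ENSMUSG00000020053, chromosome 10, 87858265 to 87937042, GRCm38, plus strand) had 9.31, 9.94 and 7.32 RPKM in controls 1, 2 and 3. In iPCKO samples 1, 2 and 3 it had 10.1, 8.00 and 8.83 RPKM. The groups overlapped throughout. The means were 8.86 ± 1.36 RPKM (SD, n = 3) and 8.97 ± 1.04 RPKM, a log2 fold change of 0.02 with a 95% interval from -0.29 to 0.33 (adjusted p = 0.93). A change as large as the fold threshold in either direction therefore lay outside the interval for Igf1.

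Igf2 (ENSMUSG00000048583, chromosome 7, 142650766 to 142666816, minus strand), an imprinted fetal growth factor expressed from the paternal copy, fell. It had 8.89, 8.13 and 8.30 RPKM in controls. In iPCKO samples it had 3.57, 3.99 and 5.31 RPKM, all below the lowest control. The mean went from 8.44 ± 0.401 RPKM (SD, n = 3) to 4.29 ± 0.905 RPKM, a log2 fold change of -0.98 (SE 0.14, 95% interval -1.3 to -0.65, adjusted p = 0.0026). In rank among all genes listed, Igf2 moved from position 6084 to 8774. Of the 12034 genes tested, 173 (1.44%) had a log2 fold change as low or lower. The adjusted p moved past the threshold without control 1 (0.013), without control 3 (0.013) or without iPCKO 2 (0.014), and with Y-linked transcripts as a covariate (0.066), while the log2 fold change in these fits stayed between -0.99 and -0.93. Against control 2 alone, the control with low Y-linked transcripts, the log2 difference of Igf2 was -0.93.

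In the annotation used here, 3596 bases or 62.8% of the Igf2 exons also belong to Gm49394, a protein-coding gene model on the same strand. Gm49394 is not among the genes listed, although 3925 genes at 0 in all samples are. Only if the authors' annotation held Gm49394 could Igf2 reads be assigned to it or set aside as ambiguous, and this could not be checked. Ins2, the neighbour of Igf2 in the imprinted cluster, was at 0 in 4 samples and at 0.0626 RPKM or less in the other two.

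**Figure D1:**
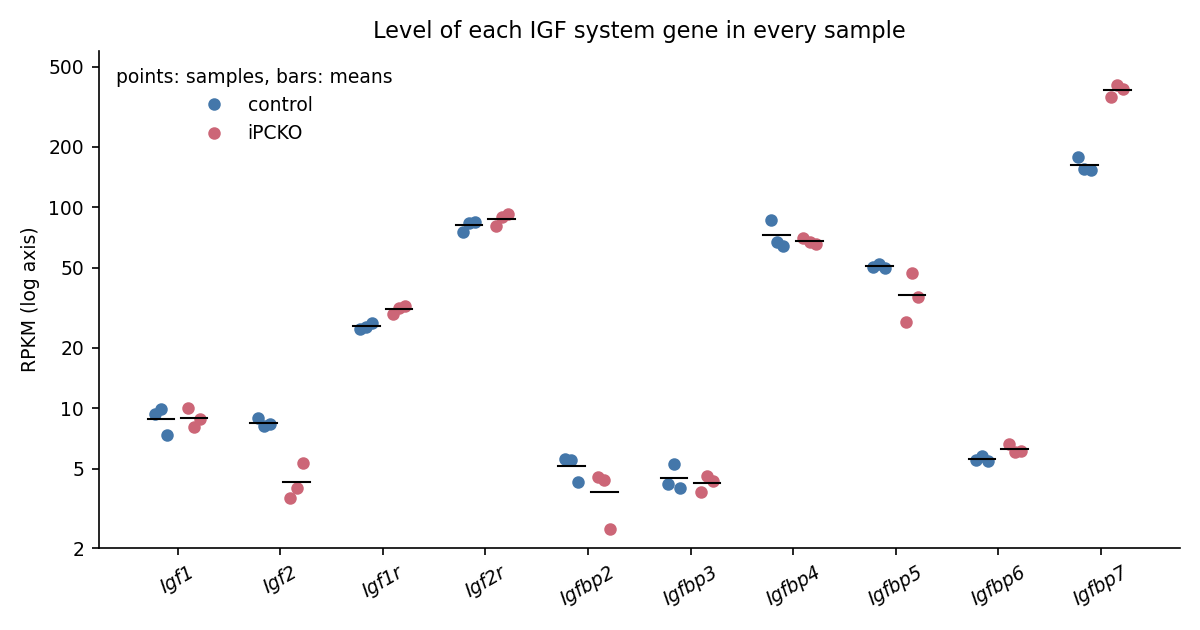
RPKM of the 10 genes (log axis) in every sample, with control samples in blue, iPCKO samples in red and bars for the means of 3 samples. Igf2 lies at 8.13 to 8.89 RPKM in controls and 3.57 to 5.31 RPKM in iPCKO samples, and Igfbp7 at 153.1 to 176.7 and 354.9 to 406.6 RPKM.

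YAP1 and TAZ do not bind DNA themselves but act through TEAD factors, whose sites hold the letters GGAATG. RefSeq windows from 250 bases before to 50 after a transcript start (GRCm38.p6) were available for all 10 genes, 14 windows in all, and these letters were searched on both strands. They were present in 4 of the 14 windows, 3 belonging to Igf2 and 1 to Igfbp5, against 4817 of 32851 windows of all genes (14.7%). The letters were found for 2 of the 10 genes. Igf2, which fell, holds them in 3 of its 4 windows, and Igfbp5, which was not called, in its window. The window of Igfbp7, which rose, holds none, and neither do those of the other genes not called. Windows were counted rather than genes, and Igf2 has the most windows of the 10. A link between these letters and the changes was not tested. Stretches of Igf2, Igfbp5 and Igfbp7 are shown. Each is written 5′ to 3′ along the gene and runs up to the first annotated exon, with GGAATG, or its complement CATTCC, in capitals. The first Igf2 stretch is chr7:142657497-142657746 on the minus strand, with the letters 163 bases before the start. The second is chr7:142661306-142661521, minus strand, with the letters on the opposite strand 218 and 112 bases before the start. Another Igf2 window with a match, 180 bases before its start, is not printed, because its farthest upstream base lies in an annotated exon.
Igf2 first stretch: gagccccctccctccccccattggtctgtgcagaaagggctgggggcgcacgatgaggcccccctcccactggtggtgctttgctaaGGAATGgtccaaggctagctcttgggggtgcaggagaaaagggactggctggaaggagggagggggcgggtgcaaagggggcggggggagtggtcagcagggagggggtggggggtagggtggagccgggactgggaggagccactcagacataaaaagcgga
Igf2 second stretch: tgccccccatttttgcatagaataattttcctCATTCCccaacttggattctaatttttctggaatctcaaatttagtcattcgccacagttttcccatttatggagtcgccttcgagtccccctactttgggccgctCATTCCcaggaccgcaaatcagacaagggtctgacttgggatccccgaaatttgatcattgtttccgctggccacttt
Igfbp5: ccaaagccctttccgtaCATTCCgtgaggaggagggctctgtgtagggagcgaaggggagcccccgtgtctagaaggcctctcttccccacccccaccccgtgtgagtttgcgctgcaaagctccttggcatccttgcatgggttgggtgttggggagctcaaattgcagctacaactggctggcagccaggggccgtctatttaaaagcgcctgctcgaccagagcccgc
Igfbp7: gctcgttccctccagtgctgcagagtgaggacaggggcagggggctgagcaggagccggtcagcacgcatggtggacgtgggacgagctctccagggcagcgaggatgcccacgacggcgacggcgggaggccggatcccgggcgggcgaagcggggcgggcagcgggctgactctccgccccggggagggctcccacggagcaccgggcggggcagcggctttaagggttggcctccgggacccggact
The Igfbp5 stretch is chr1:72874885-72875115, minus strand, with the letters on the opposite strand 233 bases before the start, and that of Igfbp7 is chr5:77408046-77408295, minus strand. A match of 6 letters is a description of the sequence, and binding was not measured in these samples.

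Neither receptor was called. Igf1r (ENSMUSG00000005533, chromosome 7, 67952827 to 68233668, plus strand), the signalling receptor of both ligands, had 24.8, 25.3 and 26.5 RPKM in controls. In iPCKO samples it had 29.5, 31.3 and 32.3 RPKM, all above the highest control. The difference was small but even, at 122% of the control mean, with a log2 fold change of 0.28 (SE 0.08, 95% interval 0.10 to 0.47, adjusted p = 0.05), and its interval lay below the fold threshold. Igf2r (ENSMUSG00000023830, chromosome 17, 12682406 to 12769664, minus strand), the clearance receptor, had 75.5, 83.4 and 84.2 RPKM in controls and 80.8, 89.5 and 92.1 RPKM in iPCKO samples. These groups overlapped, and the log2 fold change was 0.11 (95% interval -0.11 to 0.33, adjusted p = 0.49).

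Insr, the insulin receptor, which can pair with IGF1R in hybrid receptors, had 9.34, 10.9 and 11.1 RPKM in controls and 9.86, 10.1 and 9.95 RPKM in iPCKO samples, with overlapping groups (log2 fold change -0.07, adjusted p = 0.68). Because RPKM is per length, transcripts can be set against each other within a sample, although the exon lengths used are not given. The Igf1r to Insr ratio was 2.65, 2.31 and 2.38 in controls and 2.99, 3.11 and 3.24 in iPCKO samples, without overlap (log2 difference 0.35). The Igf1r to Igf2r ratio was 0.328, 0.303 and 0.315 in controls and 0.365, 0.350 and 0.351 in iPCKO samples, also without overlap (log2 difference 0.17). The Igf1 to Igf2 ratio moved most. By these values both ligands stood at near-equal levels in controls, with ratios of 1.05, 1.22 and 0.882. In every iPCKO sample Igf1 exceeded Igf2, with ratios of 2.82, 2.01 and 1.66 (log2 difference 1.02). Whether Igf2 reads were assigned to Gm49394 or set aside could not be checked, so the level of Igf2 relative to Igf1 is uncertain. Each of these 3 ratios gave p = 0.1 in the two-sided exact permutation test, the smallest value that 3 samples against 3 allow, and an adjusted p of 0.2 over the 6 ratios compared.

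**Figure D2:**
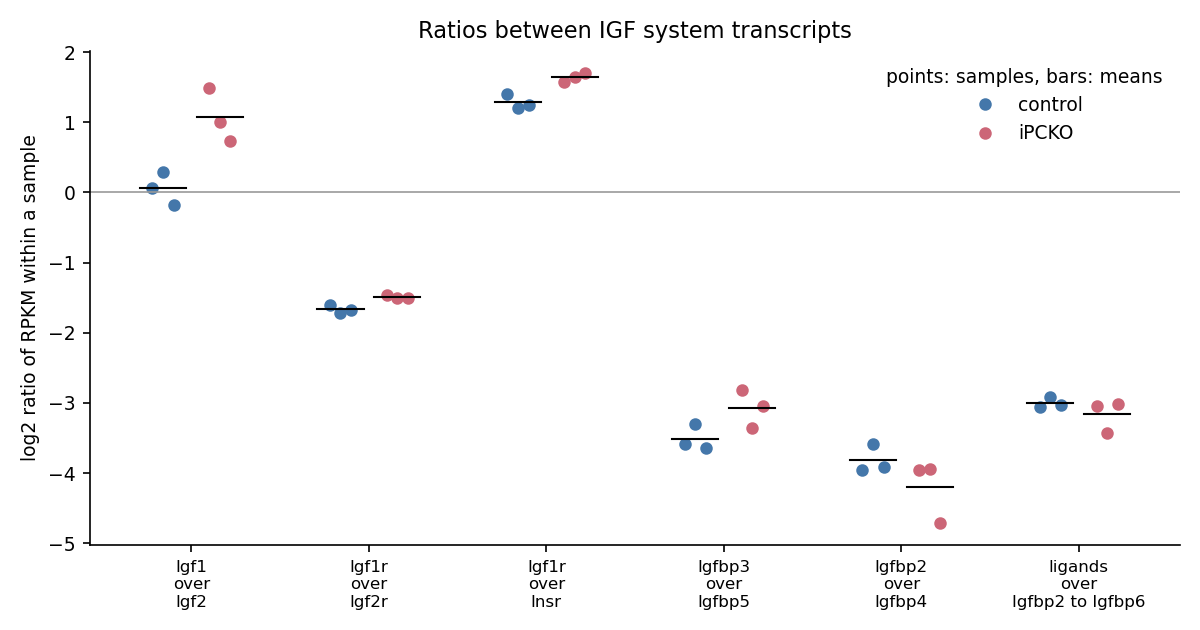
Log2 ratios of RPKM within each sample for 6 pairs of IGF system transcripts, with control samples in blue, iPCKO samples in red and bars for the means. The Igf1 to Igf2 ratio lies between -0.18 and 0.29 in controls and between 0.73 and 1.49 in iPCKO samples, and the 3 pairs on the right overlap between groups.

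Of the 6 binding proteins, 1 rose. Igfbp7 (ENSMUSG00000036256, chromosome 5, 77349240 to 77408041, minus strand) was already the most abundant member in controls, at 176.7, 153.9 and 153.1 RPKM. In iPCKO samples it had 354.9, 406.6 and 386.1 RPKM, all above the highest control. Its mean rose from 161 ± 13.4 RPKM (SD, n = 3) to 383 ± 26.03 RPKM, a log2 fold change of 1.25 (SE 0.11, 95% interval 0.99 to 1.5, adjusted p = 0.00027). This brought Igfbp7 from rank 161 to rank 50 of all genes listed. The gain of 221.3 RPKM was the 9th largest of the 12034 genes tested, and 262 genes (2.18%) had a log2 fold change as high or higher. The call held with each sample left out (log2 fold change 1.2 to 1.31) and with Y-linked transcripts as a covariate (adjusted p = 0.0089), and against control 2 alone the log2 difference was 1.31.

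Igfbp7 is also made by endothelial cells, whose markers are therefore given beside it. The summed level of 10 endothelial markers was 181 to 204 RPKM in controls and 204 to 228 RPKM in iPCKO samples. Of the 10, 2 rose (against 4.11% of all genes tested), Kdr (log2 fold change 0.77) and Vwf (0.72). Pecam1 had 14.4, 17.7 and 18.7 RPKM in controls and 17.3, 17.1 and 17.1 RPKM in iPCKO samples. Cdh5 had 31.6, 32.8 and 34.5 RPKM in controls and 34.4, 34.7 and 33.4 RPKM in iPCKO samples. Neither of these junction genes passed the test (adjusted p = 0.9 and 0.69), and their groups overlapped. Of the other markers, Esam lay higher in every iPCKO sample than in any control (log2 fold change 0.44, adjusted p = 0.056). Emcn (-0.45, adjusted p = 0.087) and Erg (-0.12, adjusted p = 0.4) lay lower in every iPCKO sample, and Tie1, Tek and Cldn5 overlapped. The median over the list differed by 0.20 (exact permutation test, p = 0.1). Polr2b, a subunit gene of RNA polymerase II, shares 85 bases (7.0% of the Igfbp7 exons) on the opposite strand, and it also rose (17.8 ± 1.92 to 29.3 ± 1.90 RPKM, adjusted p = 0.0025). The strand setting of the read counting is not given in the sources used here. The part of blood cell or endothelial RNA in the Igfbp7 and Igf2 values was not tested.

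The other 5 binding proteins were not called. Igfbp5 (ENSMUSG00000026185, chromosome 1, 72857932 to 72874884, minus strand), a binding protein tied to matrix, had 50.3, 52.2 and 49.8 RPKM in controls. In iPCKO samples it had 26.8, 47.2 and 35.7 RPKM, all below the controls but spread widely. The coefficient of variation was 2.50% in controls and 27.9% in iPCKO samples, against a median of 9.32% and 8.89% over all genes tested. The log2 fold change was -0.51 with a 95% interval from -0.91 to -0.10 (adjusted p = 0.092), and it was -0.31 without iPCKO 1 and -0.20 with array weights. Between control 3 and iPCKO 2, the most deeply sequenced samples, it was -0.08, and between the other 4 samples -0.73.

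Igfbp4 (ENSMUSG00000017493, chromosome 11, 99041244 to 99054392, plus strand), which mostly inhibits IGF action and is cut by the protease PAPP-A, had 86.5, 66.7 and 64.1 RPKM in controls and 70.4, 67.1 and 65.8 RPKM in iPCKO samples. The groups overlapped (log2 fold change -0.08, 95% interval -0.36 to 0.20, adjusted p = 0.7). Igfbp2 (ENSMUSG00000039323, chromosome 1, 72824503 to 72852474, plus strand), a fetal binding protein and the neighbour of Igfbp5 at a distance of 5457 bases, had 5.58, 5.53 and 4.28 RPKM in controls and 4.53, 4.38 and 2.51 RPKM in iPCKO samples. Its groups overlapped through control 3, the log2 fold change was -0.46 (adjusted p = 0.21), and its interval, from -0.96 to 0.05, was the widest of the 10 genes. It was -0.19 without iPCKO 3 and -0.21 with array weights. Igfbp3 (ENSMUSG00000020427, chromosome 11, 7206086 to 7213923, minus strand), the main carrier of IGFs in blood, had 4.17, 5.29 and 3.99 RPKM in controls and 3.80, 4.61 and 4.35 RPKM in iPCKO samples. These overlapped too (log2 fold change -0.07, adjusted p = 0.78). Igfbp6 (ENSMUSG00000023046, chromosome 15, 102144362 to 102149511, plus strand), which prefers IGF2 over IGF1, had 5.52, 5.78 and 5.47 RPKM in controls and 6.58, 6.03 and 6.12 RPKM in iPCKO samples. All iPCKO values lay above the controls, by a log2 fold change of 0.16 (95% interval -0.04 to 0.36, adjusted p = 0.28).

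**Figure D3:**
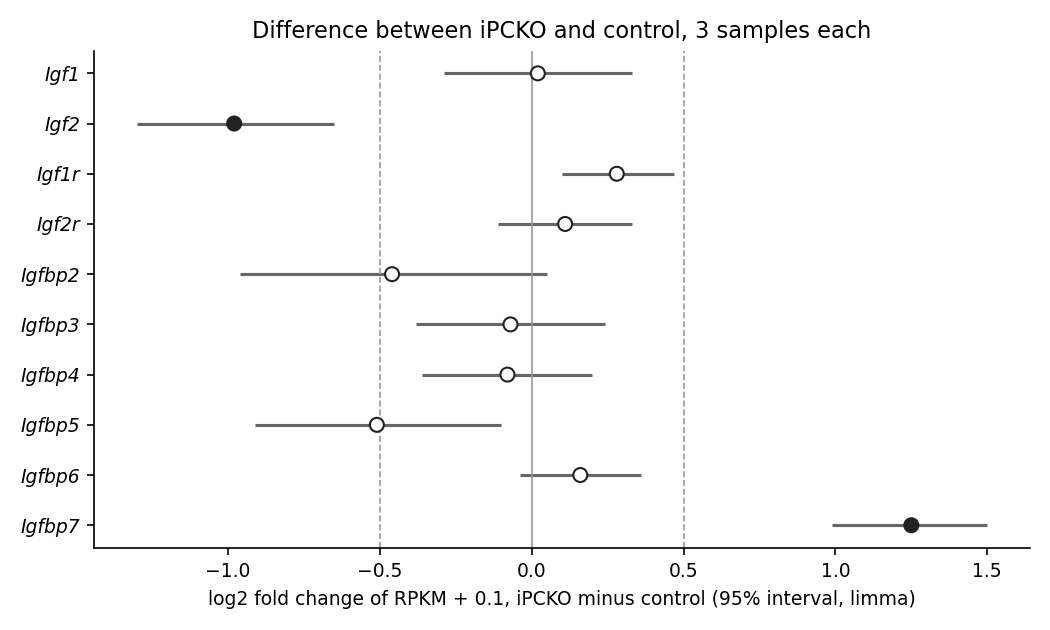
Log2 fold change of each gene, iPCKO minus control, with its 95% interval from limma, where filled points passed the test and dashed lines mark the fold threshold of 0.5. Igfbp7 (1.25) and Igf2 (-0.98) are the filled points, and the intervals of 6 of the 8 open points lie within the dashed lines.

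Over the 10 genes, 1 was higher and 1 was lower, against 817 of 12034 genes tested (6.79%), of which 495 were higher (4.11%) and 322 lower (2.68%). When each sample was rescaled to the same summed RPKM, the split over all genes was 392 higher and 418 lower, and Igfbp7 and Igf2 kept their calls. The median log2 fold change was -0.02 over the 10 genes and 0 over all genes tested. The groups did not overlap for 5 of the 10 genes (Igf2, Igf1r, Igfbp5, Igfbp6 and Igfbp7), and for 35.5% of all genes tested. Of the 8 genes not called, 6 had an interval within 0.5 on the log2 scale in both directions, all but Igfbp2 and Igfbp5.

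The order of levels changed at the lower end. By mean RPKM, controls had Igfbp7 first, then Igf2r and Igfbp4, whose ranges overlapped, then Igfbp5, Igf1r, the overlapping pair Igf1 and Igf2, and last Igfbp6, Igfbp2 and Igfbp3, each overlapping the next. In iPCKO samples the first 6 places were the same, although Igfbp5 now overlapped Igf1r, and Igf2 had moved below Igfbp6 into the range of Igfbp3. The place of Igf2 in this order is uncertain, because the counting of its exons shared with Gm49394 could not be checked. A transcript level does not measure the secreted protein.

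The binding proteins together had 328.8, 289.4 and 280.7 summed RPKM in controls and 467.0, 535.9 and 500.5 summed RPKM in iPCKO samples. Without Igfbp7 the sum of the other 5 was 138 ± 12.5 RPKM (SD, n = 3) for controls, and for iPCKO samples it was 119 ± 9.31 RPKM, with overlapping groups (p = 0.2, two-sided exact permutation test). Igfbp7 made up 53.7%, 53.2% and 54.5% of the sum in controls and 76.0%, 75.9% and 77.1% in iPCKO samples. The share of Igfbp4 went from a mean of 24.1% to 13.6% and that of Igfbp5 from 17.0% to 7.23%, while Igfbp2, Igfbp3 and Igfbp6 each held at most 2.00% in any sample. All 6 shares were without overlap between the groups (p = 0.1 each, exact permutation test, adjusted p = 0.1 over the 6), and since they add up to the whole they are not independent. As the share of Igfbp7 rose, the other 5 shares fell, so a lower share is not a lower level. The share of Igfbp6 fell although its RPKM was higher in every iPCKO sample (log2 fold change 0.16), and Igfbp4 had a log2 fold change of -0.08. The summed ligands stood at 0.120, 0.133 and 0.123 of the summed Igfbp2 to Igfbp6 in controls and at 0.122, 0.0928 and 0.124 in iPCKO samples, so that this ratio overlapped (exact p = 0.5).

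**Figure D4:**
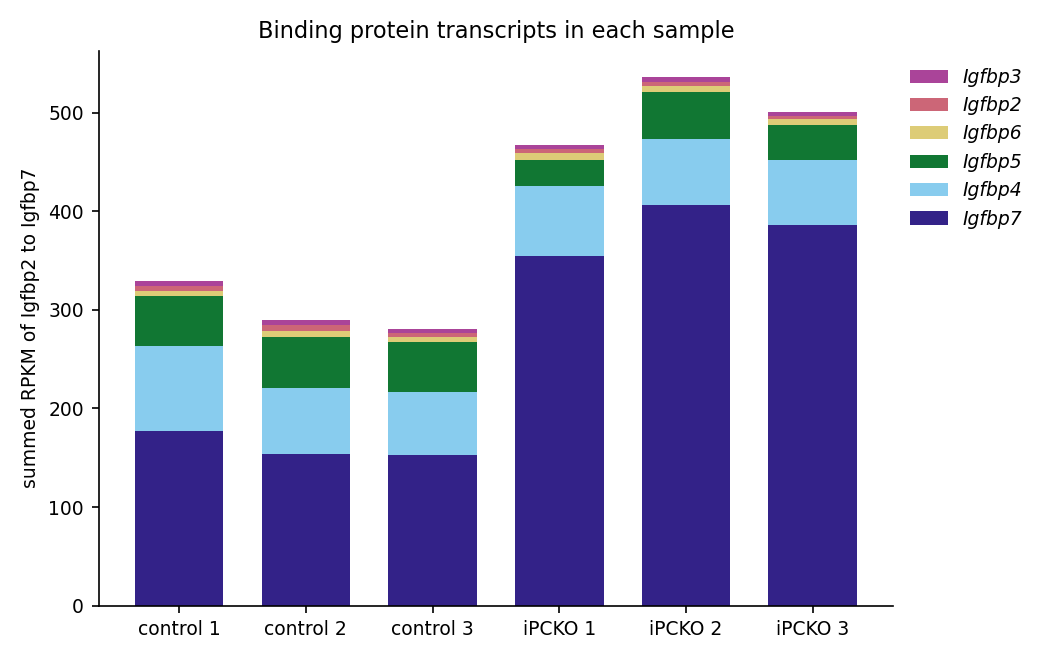
Stacked RPKM of Igfbp2 to Igfbp7 in each of the 6 samples, with 1 color per gene. The total is 280.7 to 328.8 RPKM in controls and 467.0 to 535.9 RPKM in iPCKO samples, and the part that is taller in iPCKO samples is Igfbp7 at the base of each bar.

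Among 8 further genes that set IGF availability, 4 were expressed highly enough to be tested and 2 of these rose (against 4.11% of all genes tested). Stc1, which encodes stanniocalcin-1, an inhibitor of pappalysin proteases, had 7.71, 9.12 and 7.42 RPKM in controls and 19.95, 18.6 and 17.6 RPKM in iPCKO samples (log2 fold change 1.2, adjusted p = 0.0002). Pappa2, which encodes a protease that cuts IGFBP3 and IGFBP5, had 8.64, 8.84 and 6.45 RPKM in controls and 13.6, 16.5 and 19.2 RPKM in iPCKO samples (log2 fold change 1.03, adjusted p = 0.0034). Thus a protease gene and an inhibitor gene of the same protease family were both higher. Pappa, the related protease that cuts IGFBP4, was low, at 0.745 to 0.8997 RPKM in controls and 1.15 to 1.58 RPKM in iPCKO samples. It was not called (adjusted p = 0.04). Pappa passed the filter of 1 RPKM only through the iPCKO samples, where it was higher, so nothing is read from its test. Igfbp1, Igfals, Igfbpl1 and Stc2 were below the filter of 1 RPKM in 3 samples, and these 4 genes and Pappa are named here after their values were seen.

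Below the receptors, the adaptor list and the PI3K-AKT list were read, and other branches such as the MAPK cascade were not listed. Of 11 receptors and adaptors, 9 were tested, none was called by limma, 5 had an unadjusted p below 0.05 (against 29.7% of all genes tested), and the median log2 fold change was -0.22. The most abundant were Gab1, a docking protein, at 55.2 to 68.1 RPKM in controls and 47.6 to 55.9 RPKM in iPCKO samples (adjusted p = 0.1), and Grb10, an imprinted inhibitor of the insulin and IGF1 receptors, at 41.3 to 50.8 and 38.0 to 54.0 RPKM (adjusted p = 0.87). The largest differences of the list, named after their values were seen, were those of Grb14, an inhibitory adaptor of the insulin receptor (log2 fold change -0.62, adjusted p = 0.031), and Sos1, an exchange factor for RAS (-0.32, adjusted p = 0.045). The insulin receptor substrates Irs1 and Irs2, likewise named afterwards, had log2 fold changes of -0.27 and -0.22 (adjusted p = 0.13 and 0.17). All 21 genes of the PI3K, AKT, mTOR and FOXO list were tested, with log2 fold changes from -0.25 to 0.25. None was called by limma, and 1 had an unadjusted p below 0.05. Akt1, a central kinase of the pathway, had 59.3 to 85.5 RPKM in controls and 70.8 to 89.1 RPKM in iPCKO samples, and the groups overlapped (adjusted p = 0.44). These are transcript levels, and the phosphorylation that carries the signal was not measured.

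IGF2 mRNA-binding proteins attach to transcripts such as that of Igf2 and regulate their stability and translation. None of the 2 tested was called by limma, although both had an unadjusted p below 0.05 (against 29.7% of all genes tested). Igf2bp2 had 1.58, 1.42 and 1.53 RPKM in controls and 2.28, 2.39 and 2.60 RPKM in iPCKO samples (log2 fold change 0.65, adjusted p = 0.012). Igf2bp3 had 1.25, 1.81 and 1.70 RPKM in controls and 1.97, 2.47 and 3.05 RPKM in iPCKO samples (log2 fold change 0.62, adjusted p = 0.073). Both lay higher in every iPCKO sample than in any control, and groups did not overlap for 35.5% of all genes tested. Igf2bp1 stayed below 1 RPKM in all samples and was not tested.

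Igf2 belongs to a group of imprinted genes that are active in fetal growth, many of which are shut down after birth. Of 11 such genes listed, 9 were found and tested, and these moved in both directions: 1 rose, 2 fell and 6 were not called. Over all genes tested, 4.11% rose and 2.68% fell. Mest, a hydrolase-like gene expressed from the paternal copy, fell from 91.9, 101.3 and 109.0 RPKM to 15.4, 17.3 and 18.2 RPKM (log2 fold change -2.56, adjusted p = 4.3e-06). Ndn, which encodes the growth suppressor necdin, fell from 114.5, 103.2 and 112.1 RPKM to 70.2, 54.4 and 56.2 RPKM (log2 fold change -0.87, adjusted p = 0.0017). Dlk1, which encodes a Notch-ligand-like membrane protein, rose from 4.61, 3.36 and 3.36 RPKM to 16.1, 18.2 and 12.7 RPKM (log2 fold change 2.02, adjusted p = 0.00016). Thus, Dlk1 and Igf2, both expressed from the paternal copy, went in opposite directions.

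Of a list of 14 known YAP1 and TAZ target genes, all were tested, 4 fell (against 2.68% of all genes tested), none rose and 10 were not called. The median log2 fold change was -0.44, the range -2.01 to 0.35, and 8 of the 14 had an unadjusted p below 0.05 (against 29.7% of all genes tested). Those that fell were Ajuba, a LIM-domain protein that binds LATS kinases (log2 fold change -2.01), Tgfb2, a TGFβ ligand that the study itself named from these samples (-1.84), Lats2, a kinase that inactivates YAP1 (-1.31), and Amotl2, a scaffold that binds YAP1 (-0.74). Among those not called were Ccn2 (-0.76, adjusted p = 0.12), Ccn1 (-0.76, adjusted p = 0.3) and Ankrd1 (-0.16, adjusted p = 0.66), named after their values were seen. Over all lists, 58 of 67 genes were tested, 3 rose and 6 fell (against 4.11% and 2.68% of all genes tested), with a median log2 fold change of -0.04.

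**Figure D5:**
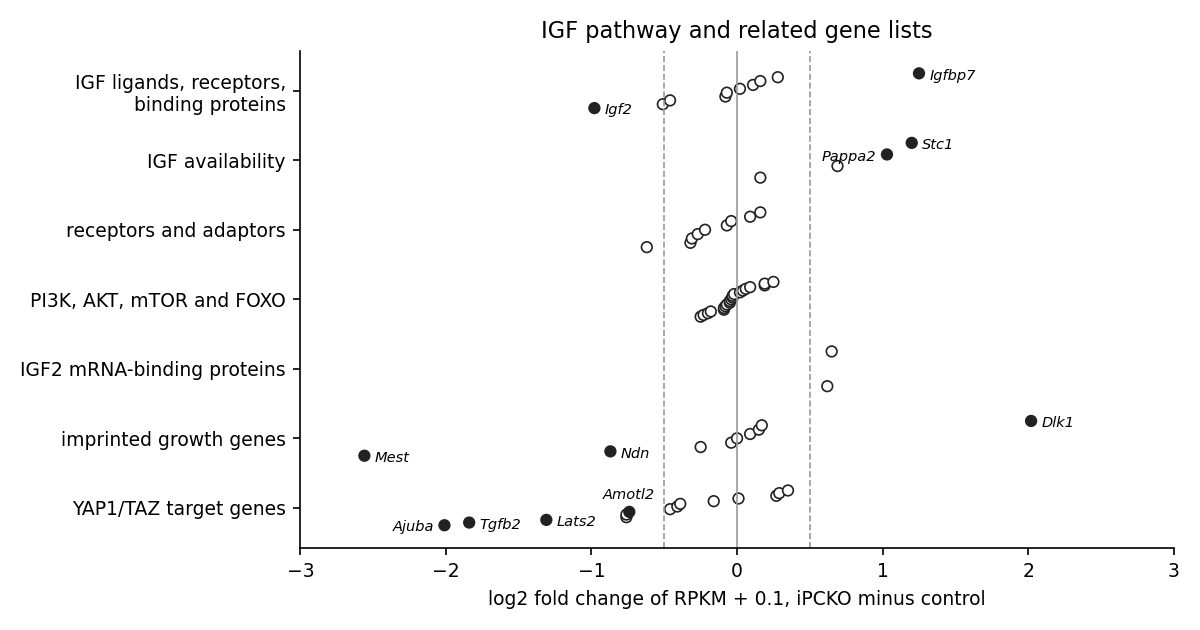
Log2 fold change of RPKM + 0.1, iPCKO minus control, of every tested gene of the 10 IGF genes and of 6 related lists, where filled points passed the test and carry their names and dashed lines mark the fold threshold of 0.5. Filled points are absent from the receptor and adaptor, PI3K and IGF2 mRNA-binding lists, and all 21 genes of the PI3K list lie between -0.25 and 0.25.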

How the data were processed

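The authors made stranded total RNA libraries from anti-HA immunoprecipitates, mapped reads with TopHat to mm10, counted reads per gene with HTSeq 0.6.1 and used DESeq2 for their tests. The authors deposited 1 table of RPKM per sample, with 21603 Ensembl genes. The exon lengths behind RPKM and the strand setting of counting are not given in the sources used here. Symbols and positions came from GENCODE M21 (GRCm38), promoter windows from RefSeq.

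Groups and replicate numbers came from the labels. The 12034 genes that reached 1 RPKM in 3 or more of the 6 samples were tested with limma 3.58.1 (R 4.3.3) on log2(RPKM + 0.1), with eBayes following the intensity trend, and p-values were adjusted over all of them after Benjamini and Hochberg. Adding 0.1 understates the change of low genes. The read counts were not used here, and depth was taken from the steps of low values. At 10 reads or fewer, 75.9% to 77.1% of genes with 1 transcript lay within 0.02 reads of a whole number. Sums, shares, ratios and marker lists were compared with the two-sided exact permutation test (scipy 1.17.1).

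The 10 genes and all lists were chosen with earlier results of these data known. All 10 are named. From each list, every gene called was named, up to 6 by absolute log2 fold change, or else the 2 most abundant (1 gene under this rule is not reported here), plus Yap1, Wwtr1, Ins2 and H19, which was not analysed here. Meg3 was not analysed here either. Alternatives were a replicate block, other pseudocounts, filters, scalings and thresholds, no intensity trend, array weights, Y-linked transcripts as a covariate, the median over a marker list, and each sample left out.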

Additional observations from a re-analysis of the deposited data

How the results depend on the processing

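Igfbp7 was called under all 11 other settings of the fit (log2 fold change 1.13 to 1.37) and with each sample left out. Igf2 was called under 10 of the 11 and in 3 of the 6 fits with a sample left out (log2 fold change -1.14 to -0.86), so that the number of members called was 1 with Y-linked transcripts as a covariate, 1 at an absolute log2 fold change above 1, and 1 or 2 with a sample left out. The number of all genes called was 1590 with array weights, 119 with the Y-linked covariate, 1313 at an adjusted p below 0.05, 411 at an absolute log2 fold change above 1, and 363 to 804 with a sample left out, where 11853 to 11931 genes were tested (544 without control 2, 363 without control 3, 373 without iPCKO 2 and 455 without iPCKO 3). Of the pathway lists, 14 genes were called with array weights. Fewer samples were fitted where a sample was left out, and the cause of the other differences was not tested. Correlations were 0.238, 0.092 and 0.022 between same-numbered samples and -0.298 to 0.273 between differently numbered ones, so the replicate numbers gave no clear pairing. With the replicate number as a block, 922 genes and the same number of members, 2, were called.

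Small differences changed sign. Igf1 went to -0.04 on the rescaled (TPM) values, -0.04 with array weights, -0.16 with the Y-linked covariate and -0.11 to 0.11 with a sample left out. Igfbp3 went to 0.01 with array weights and -0.14 to 0.06 with a sample left out, Igfbp4 to 0.01 with array weights, 0.01 with the Y-linked covariate and -0.17 to 0.05 with a sample left out. As the median over the list, the marker difference was -0.86 for pericytes, 0.46 for alveolar and matrix fibroblasts and -0.27 for erythrocytes. With a sample left out the mean over the list gave -0.06 to 0.09 for pericytes, -0.15 to 0.05 for alveolar and matrix fibroblasts, -0.20 to 0.11 for adventitial fibroblasts and -0.25 to 0.58 for erythrocytes. Lowly expressed members such as Igfbp2 rest on few reads, and 3 samples per group allow no exact p below 0.1.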

Other observations

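Markers of other cells were compared between the groups as the mean log2(RPKM + 0.1) over each list. Platelet markers were higher in every iPCKO sample than in any control (difference 1.9, 6 of 7 tested genes rose). Mesothelial (0.47, 1 of 5 rose), epithelial (0.33, 2 of 11 rose) and macrophage markers (0.95, 1 of 9 rose) were higher likewise. So were smooth muscle and myofibroblast markers (0.27), of which 3 of 9 rose and 1 fell. The macrophage gene that rose was Marco (0.281 to 0.624 RPKM in controls, 1.17 to 2.35 RPKM in iPCKO samples). Marco and Itgax reached the filter of 1 RPKM only in iPCKO samples, so their tests add no support. Of all genes tested, 4.11% rose and 2.68% fell. Leukocyte and neutrophil markers differed by 1.67 and 3.39. Each of these lists had p = 0.1 in the exact permutation test and an adjusted p of 0.186 over the 13 lists. The lists of endothelial cells (0.12), alveolar and matrix fibroblasts (-0.04), adventitial fibroblasts (-0.03), erythrocytes (0.14) and pericytes (0.02) overlapped between the groups by this mean. With the median over the list in place of the mean, the difference was 0.20 for endothelial cells, 0.46 for alveolar and matrix fibroblasts and -0.86 for pericytes (exact p = 0.1 each), -0.77 for adventitial fibroblasts (exact p = 0.3) and 0.13 for epithelial cells (exact p = 0.5). The Y-linked list (-4.17) overlapped through control 2.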
